A study of Mus musculus with 25 samples.

Results

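The 38 genes described here encode the contractile apparatus, the calcium handling and the energy supply of skeletal muscle, and they were followed across 25 arrays of mouse mammary tissue. They were taken as a list of gene names: 13 belong mainly to fast muscle fibres, 7 to slow fibres and 18 to both. All 38 of 38 were measured, each by a single probe set, among 19937 genes with a probe set of their own. Most of them were high together in a few arrays and not by labelled group. In 4 arrays, labelled Lgr5 tumors 1, 4 and 10 and K8 tumor 7, between 26 and 32 of the 38 lay at least 1 log2 unit above their own median over all arrays. In 18 arrays no more than 2 did. The fast fibre genes lay furthest above their medians there, and the slow fibre genes had a mean more than 0.33 above theirs in 1 array, Lgr5 tumor 4.

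A skeletal muscle fibre shortens when myosin heads of the thick filament pull on actin of the thin filament, and the troponin complex on the thin filament allows this once calcium is released from the sarcoplasmic reticulum. Fast and slow fibres use different genes for many of the same parts, including myosin heavy and light chains and the 3 troponin subunits, so the isoforms that are present tell fibre types apart. The mammary epithelium itself is not built from this machinery: its myoepithelial cells contract with smooth muscle proteins, while the fat pad that carries the gland lies under the skin close to the muscles of the body wall.

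The arrays are Affymetrix expression arrays with 1 sample each. The labels name 10 tumors from K8-creERT2/PIK3CA H1047R mice on a mixed FVB/CD1 background and 10 tumors from Lgr5-creERT2/PIK3CA H1047R mice on a mixed FVB/C57/BL6 background. The references are 3 mammary glands from Lgr5-creERT2 ctrl mice and 2 from K8-creERT2 ctrl mice, on the background of their own line. In the tumor lines a tamoxifen-dependent Cre, expressed in cells with keratin 8 or with the receptor Lgr5, turns on the H1047R mutant of the PI3-kinase subunit PIK3CA. The same protocol text, with tamoxifen at 7 to 8 weeks of age, is attached to the gland arrays. Line and background go together, so their effects cannot be told apart. Nothing in the labels states that the arrays of a group are from different animals, and the spread behind each p-value may thus be technical. The number of arrays limits the precision.

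Arrays are called by their labels throughout ("K8 tumor 7" is the array with that label), because tissue markers went against the labels of at least 7 of them. Lgr5 tumors 2, 6, 7, 8 and 9 were rich in fat genes, with a mean log2 value of 12 adipocyte genes from 12.54 to 12.76 against at most 11.31 in any other array, and their mean of 8 epithelial genes was 9.65 to 10.31 against at least 11.22 elsewhere. Squamous genes lay 2.48 to 4.22 above their own medians, as a mean over 10 genes, in the 5 glands, in K8 tumor 9 and in Lgr5 tumor 10, and 1.81 above in Lgr5 tumor 4. The array medians over all probe sets lay between 6.34 and 6.43, and no arrays held identical values.

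Promoter sequences show what the members share in the DNA before their start sites. Windows of 250 bases before and 50 bases after the start were available from RefSeq (GRCm38.p6) for 30 of the 38 genes. The 7 printed here are a fast heavy chain, the fast and slow troponin C isoforms, the calcium pump and the creatine kinase with high peaks in the same arrays, skeletal actin, and the light chain that departed most from the other members. The Myh4 window lies at chr11:67237562-67237861 on the plus strand. The others are Tnnc2 at chr2:164779685-164779984 on the minus strand, Tnnc1 at chr14:31208062-31208361 on the plus strand, Atp2a1 at chr7:126463024-126463323 on the minus strand, Ckm at chr7:19410844-19411143 on the plus strand, Acta1 at chr8:123894726-123895025 on the minus strand and Myl1 at chr1:66945007-66945306 on the minus strand. For a gene with several windows the first listed is shown. Each is written 5′ to 3′ along its gene in lower case, with capitals for the motifs that a search found: the E-box CANNTG, which myogenic helix-loop-helix factors bind, the MEF2 site and the CArG box, which serum response factor binds.
Myh4: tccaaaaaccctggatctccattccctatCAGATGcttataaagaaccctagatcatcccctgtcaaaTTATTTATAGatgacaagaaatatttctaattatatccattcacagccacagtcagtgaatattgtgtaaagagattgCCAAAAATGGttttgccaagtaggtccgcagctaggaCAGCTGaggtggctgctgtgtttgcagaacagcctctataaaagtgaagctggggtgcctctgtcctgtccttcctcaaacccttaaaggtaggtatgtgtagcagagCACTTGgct
Tnnc2: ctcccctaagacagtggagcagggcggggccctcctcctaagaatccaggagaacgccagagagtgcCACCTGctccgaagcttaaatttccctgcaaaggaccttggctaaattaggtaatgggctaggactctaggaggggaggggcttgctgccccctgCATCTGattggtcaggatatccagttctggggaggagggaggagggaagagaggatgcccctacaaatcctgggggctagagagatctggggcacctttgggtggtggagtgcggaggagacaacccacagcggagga
Tnnc1: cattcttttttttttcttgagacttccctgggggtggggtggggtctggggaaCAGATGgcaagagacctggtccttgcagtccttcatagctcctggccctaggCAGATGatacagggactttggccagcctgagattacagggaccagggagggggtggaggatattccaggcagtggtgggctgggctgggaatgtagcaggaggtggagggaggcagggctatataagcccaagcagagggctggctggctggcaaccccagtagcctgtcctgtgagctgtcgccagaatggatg
Atp2a1: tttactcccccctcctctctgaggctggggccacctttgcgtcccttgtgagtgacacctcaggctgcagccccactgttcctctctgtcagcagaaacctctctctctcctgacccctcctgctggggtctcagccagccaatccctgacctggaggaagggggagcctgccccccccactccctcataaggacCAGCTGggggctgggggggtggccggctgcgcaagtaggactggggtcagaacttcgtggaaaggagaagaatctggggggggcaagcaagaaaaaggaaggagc
Ckm: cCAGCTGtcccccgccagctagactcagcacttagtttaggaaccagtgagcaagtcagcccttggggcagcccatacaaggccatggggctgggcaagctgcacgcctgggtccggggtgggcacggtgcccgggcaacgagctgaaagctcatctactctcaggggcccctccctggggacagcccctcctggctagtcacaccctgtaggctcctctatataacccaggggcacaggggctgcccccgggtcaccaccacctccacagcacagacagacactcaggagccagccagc
Acta1: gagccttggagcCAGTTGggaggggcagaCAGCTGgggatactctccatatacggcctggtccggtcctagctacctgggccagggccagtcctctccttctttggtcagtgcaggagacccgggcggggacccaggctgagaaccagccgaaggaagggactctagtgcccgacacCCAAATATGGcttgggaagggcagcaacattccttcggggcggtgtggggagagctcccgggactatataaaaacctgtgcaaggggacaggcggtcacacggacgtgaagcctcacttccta
Myl1: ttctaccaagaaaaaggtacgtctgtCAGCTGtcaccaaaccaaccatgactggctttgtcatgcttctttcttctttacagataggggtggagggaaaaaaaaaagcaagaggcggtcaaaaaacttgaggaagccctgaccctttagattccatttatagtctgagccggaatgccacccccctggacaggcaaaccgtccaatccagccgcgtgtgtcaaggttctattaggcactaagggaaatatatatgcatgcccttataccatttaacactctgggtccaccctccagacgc

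The Myh4 window holds 3 E-boxes, 1 MEF2 match and 1 CArG match, and the Acta1 window 2 E-boxes and 1 CArG match. Tnnc2 and Tnnc1, the fast and slow forms of 1 subunit, hold 2 E-boxes each and no other of these motifs. Across the members CANNTG was found in 26 of 30 genes, in a search of both strands, against 72.3% of all 32851 windows. Its form CAGCTG, which is contained in it and is bound by MyoD and its relatives, was found in 16 of 30 genes against 16.3% of all windows. The MEF2 site was found in 5 of 30 genes (Myh1, Myh4, Pgam2, Pvalb and Ttn) against 3.19%, and the CArG box in 5 of 30 (Acta1, Ldb3, Myh4, Myl3 and Myom1) against 1.63%. A gene was counted when any of its windows held the motif, whereas the share of all is per window. The 30 genes have 37 windows, of which 31 held CANNTG, 19 CAGCTG, 5 the MEF2 site and 6 the CArG box. By gene, CAGCTG stood in 4 of 9 fast, 3 of 7 slow and 9 of 14 shared genes, and was thus found in each class. These matches are letters in a window and were not tested as binding sites.

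To compare genes whose probe sets differ in brightness, each value was set against the gene's own median over the 25 arrays, and this difference in log2 units is called the deviation. A deviation of 1 is a doubling on the linear scale. The number of members with a deviation of at least 1 was 32 in Lgr5 tumor 4, 29 in K8 tumor 7, 27 in Lgr5 tumor 1 and 26 in Lgr5 tumor 10. A middle set followed, with 19 members in K8 tumor 8, 15 in Lgr5 gland 3 and 14 in K8 tumor 3. Between these and the other 18 arrays, which had 0 to 2, no array lay. At this cutoff both tumor groups and 1 of the 2 gland groups therefore held arrays with many members up and arrays with few. The 2 K8 glands had 0 each. At a deviation of at least 0.5, Lgr5 tumor 3 had 6 members and Lgr5 gland 2 had 5, against 21 in Lgr5 gland 3.

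The mean deviation of all 38 genes was 2.76 in Lgr5 tumor 4, 2.47 in K8 tumor 7, 1.99 in Lgr5 tumor 1 and 1.80 in Lgr5 tumor 10. It was 1.17 in K8 tumor 8, 0.89 in K8 tumor 3 and 0.84 in Lgr5 gland 3. In the same 7 arrays between 0.80% and 2.66% of all 19937 genes lay at least 1 above their own median, and in Lgr5 tumor 2, where 2 members did, 4.76% of all genes did. Lgr5 tumor 4 held the highest value of 33 of the 38 members, and K8 tumor 7 that of the other 5 (Mybpc2, Acta1, Des, Ldb3 and Ryr1). In bulk tissue fewer muscle cells and less muscle RNA per cell cannot be told apart, so these values are levels per array and not cell numbers.

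**Figure D1:**
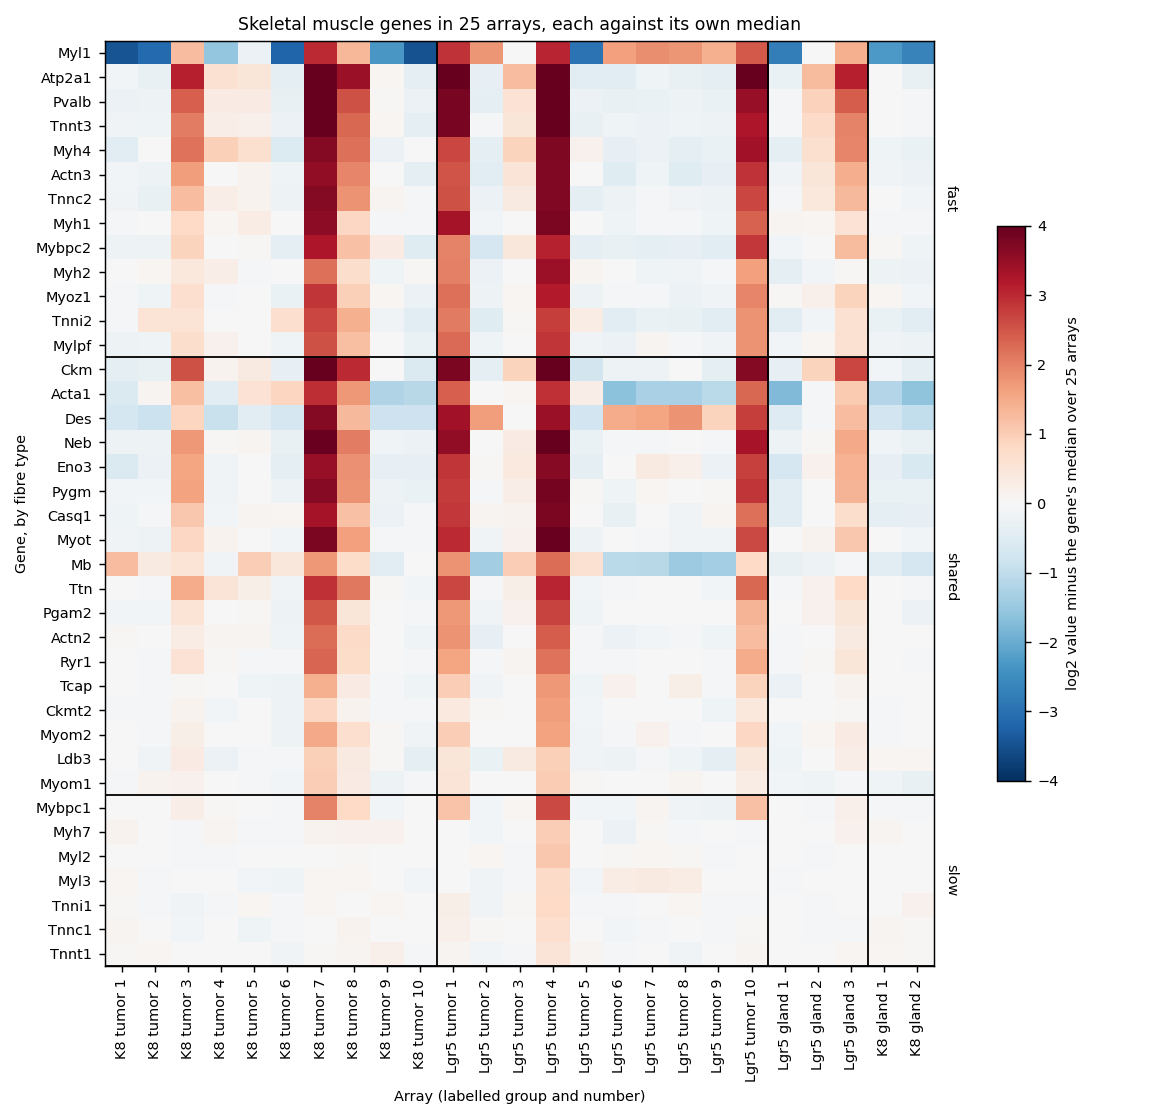
Deviation of each of the 38 genes (rows, grouped as fast, shared and slow fibre genes) from its own median in each of the 25 arrays (columns, by labelled group), in log2 units from blue (lower) to red (higher), with colours capped at 4. Columns K8 tumor 7 and Lgr5 tumors 1, 4 and 10 are red for 26 to 32 genes, K8 tumors 3 and 8 and Lgr5 gland 3 are paler, and the slow genes stay near white outside Lgr5 tumor 4 except Mybpc1.

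The thick filament has 10 members: myosin heavy chains, light chains and the myosin binding proteins C. Myh4, Myh1 and Myh2 encode the heavy chains of fast 2B, 2X and 2A fibres, which lie together on chromosome 11 and are similar in sequence, and whether a probe set for 1 of them also reads another was not tested. In the K8 tumors the Myh4 value was 6.11 at the lowest, 6.96 at the median and 10.31 at the highest. In the Lgr5 tumors the same values were 6.27, 6.61 and 10.40, with 6.28, 7.29 and 8.61 in the Lgr5 glands and 6.47 and 6.38 in the K8 glands. Myh4 was high in 7 arrays, which were the 4 with most members up and the 3 of the middle set, and the groups overlapped. Its highest value, in Lgr5 tumor 4, was 3.75 above its median over all arrays.

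Myh1 and Myh2 were more restricted than Myh4. Myh1 ran from 5.44 through a median of 5.57 to 9.10 in the K8 tumors and from 5.36 through 5.50 to 9.29 in the Lgr5 tumors. It read 5.63, 5.61 and 6.12 in the Lgr5 glands and 5.45 and 5.48 in the K8 glands. Both genes lay at least 1 above their median in 4 arrays, and in K8 tumor 3, where Myh4 had a deviation of 2.19, those of Myh1 and Myh2 were 0.80 and 0.43. Myh2, the 2A chain of the more oxidative fast fibres, peaked at 9.26 in Lgr5 tumor 4 and 8.02 in K8 tumor 7.

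Myh7 encodes the heavy chain of slow fibres and of the heart ventricle. For Myh7 the lowest, median and highest K8 tumors had 5.64, 5.79 and 5.90, and the Lgr5 tumors 5.49, 5.72 and 6.71. Glands of the Lgr5 line had 5.73, 5.73 and 5.90 for Myh7, and those of the K8 line 5.85 and 5.72. A single array stood out, Lgr5 tumor 4 with 6.71, and the next value over all arrays was 5.90. K8 tumor 7, with 3.66 for Myh4, had a Myh7 deviation of 0.14.

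The light chains repeated this split. Mylpf, the regulatory light chain of fast fibres, followed the mean of all members more closely than any other member, with a root mean square difference of 0.12 over the 25 arrays. Mylpf ran from 5.39 through a median of 5.66 to 8.21 in the K8 tumors and from 5.41 through 5.64 to 8.51 in the Lgr5 tumors. It read 5.53, 5.74 and 6.26 in the Lgr5 glands and 5.52 and 5.43 in the K8 glands. Its slow counterpart Myl2 was flat. In the K8 tumors the Myl2 value was 5.65 at the lowest, 5.72 at the median and 5.78 at the highest. In the Lgr5 tumors the same values were 5.67, 5.78 and 6.83, with 5.76, 5.69 and 5.77 in the Lgr5 glands and 5.74 and 5.72 in the K8 glands. Outside Lgr5 tumor 4 no array exceeded 5.82.

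Myl1 encodes the essential light chain of fast fibres and had the largest range of all members, 6.55 log2 units. For Myl1 the lowest, median and highest K8 tumors had 5.05, 6.61 and 11.54, and the Lgr5 tumors 5.58, 10.31 and 11.60. Glands of the Lgr5 line had 5.78, 8.54 and 9.97 for Myl1, and those of the K8 line 6.26 and 5.88. It was high in the 4 arrays with most members up, at 11.54, 11.43, 11.60 and 10.99 in K8 tumor 7 and Lgr5 tumors 1, 4 and 10. It was also high in the 5 fat-rich arrays, at 10.31, 10.19, 10.40, 10.30 and 9.96 in Lgr5 tumors 2, 6, 7, 8 and 9, where the mean deviation of all 13 fast genes was -0.15 to -0.01. Its difference from the mean pattern of the members, 1.88, was the largest of the 38.

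Myl3, the essential light chain of slow fibres and heart ventricle, had its highest value in Lgr5 tumor 4. Myl3 ran from 6.28 through a median of 6.46 to 6.52 in the K8 tumors and from 6.31 through 6.43 to 7.21 in the Lgr5 tumors. It read 6.41, 6.44 and 6.45 in the Lgr5 glands and 6.43 and 6.47 in the K8 glands. The next values were 6.73, 6.79 and 6.75 in Lgr5 tumors 6, 7 and 8, again fat-rich arrays in which most members were near their medians.

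Myosin binding protein C holds the thick filament together and tunes the heads. Mybpc2 is its fast form. Mybpc2 ran from 6.08 through a median of 6.58 to 9.80 in the K8 tumors and from 5.88 through 6.23 to 9.63 in the Lgr5 tumors. It read 6.45, 6.56 and 7.82 in the Lgr5 glands and 6.61 and 6.37 in the K8 glands. Mybpc1, counted with the slow genes, was the 1 slow gene that was high in several arrays. In the K8 tumors the Mybpc1 value was 5.69 at the lowest, 5.80 at the median and 7.78 at the highest. In the Lgr5 tumors the same values were 5.60, 5.79 and 8.45, with 5.77, 5.75 and 6.00 in the Lgr5 glands and 5.76 and 5.71 in the K8 glands. Its deviation was 2.65 in Lgr5 tumor 4, 1.98 in K8 tumor 7, 1.18 in Lgr5 tumor 10 and 1.14 in Lgr5 tumor 1, in each case below that of Mybpc2. Fast fibres are known to contain this protein as well.

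The thin filament has 8 members: actin, the giant protein nebulin that spans the filament, and 6 troponin genes. Acta1 encodes skeletal actin, the main protein of the filament. Acta1 ran from 8.51 through a median of 10.07 to 12.67 in the K8 tumors and from 8.08 through 9.75 to 12.66 in the Lgr5 tumors. It read 7.95, 9.63 and 10.77 in the Lgr5 glands and 8.54 and 8.13 in the K8 glands. It also varied within both lines among arrays in which most members were near their medians. K8 tumors 1, 2, 4, 5 and 6 had 9.14, 9.84, 9.29, 10.31 and 10.58, whereas K8 tumors 9 and 10 had 8.51 and 8.62. Lgr5 tumors 6, 7, 8 and 9 had 8.08, 8.44, 8.43 and 8.64, whereas Lgr5 tumors 2, 3 and 5 had 9.72, 9.79 and 9.99. Neb, the nebulin gene, was up in the same 7 arrays as Myh4 and reached 4.01 above its median.

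Tropomyosin-binding troponin T has a fast gene, Tnnt3, and a slow gene, Tnnt1. For Tnnt3 the lowest, median and highest K8 tumors had 6.43, 6.94 and 11.12, and the Lgr5 tumors 6.49, 6.67 and 11.24. Glands of the Lgr5 line had 6.72, 7.57 and 8.78 for Tnnt3, and those of the K8 line 6.80 and 6.73. The 7 arrays high for Myh4 were also the 7 highest for Tnnt3, and the groups overlapped. Tnnt1 ran from 5.91 through a median of 6.06 to 6.24 in the K8 tumors and from 5.90 through 6.03 to 6.55 in the Lgr5 tumors. It read 6.03, 6.05 and 6.12 in the Lgr5 glands and 6.12 and 6.08 in the K8 glands. Tnnt1 had the smallest range of all members, 0.66, equal to the median range of all genes.

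Troponin I, the inhibitory subunit, gave the same picture. In the K8 tumors the Tnni2 value was 7.18 at the lowest, 7.93 at the median and 10.34 at the highest. In the Lgr5 tumors the same values were 7.17, 7.54 and 10.41, with 7.19, 7.55 and 8.26 in the Lgr5 glands and 7.37 and 7.23 in the K8 glands. The fast gene Tnni2 lay at least 1 above its median in 5 arrays. For Tnni1 the lowest, median and highest K8 tumors had 5.71, 5.84 and 5.92, and the Lgr5 tumors 5.71, 5.82 and 6.64. Glands of the Lgr5 line had 5.82, 5.77 and 5.86 for Tnni1, and those of the K8 line 5.86 and 6.00. The slow gene Tnni1 reached 1 above its median in none of the 25, and its deviation in Lgr5 tumor 4 was 0.80.

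Troponin C binds the calcium. Tnnc2 ran from 5.70 through a median of 6.12 to 9.67 in the K8 tumors and from 5.66 through 5.91 to 9.72 in the Lgr5 tumors. It read 5.94, 6.43 and 7.31 in the Lgr5 glands and 6.01 and 5.91 in the K8 glands. The fast gene Tnnc2 peaked 3.72 above its median and lay at least 1 above it in 7 arrays. In the K8 tumors the Tnnc1 value was 5.62 at the lowest, 5.81 at the median and 5.95 at the highest. In the Lgr5 tumors the same values were 5.69, 5.79 and 6.48, with 5.80, 5.77 and 5.76 in the Lgr5 glands and 5.91 and 5.84 in the K8 glands. The slow and cardiac gene Tnnc1 lay at most 0.68 above its median, in Lgr5 tumor 4.

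**Figure D2:**
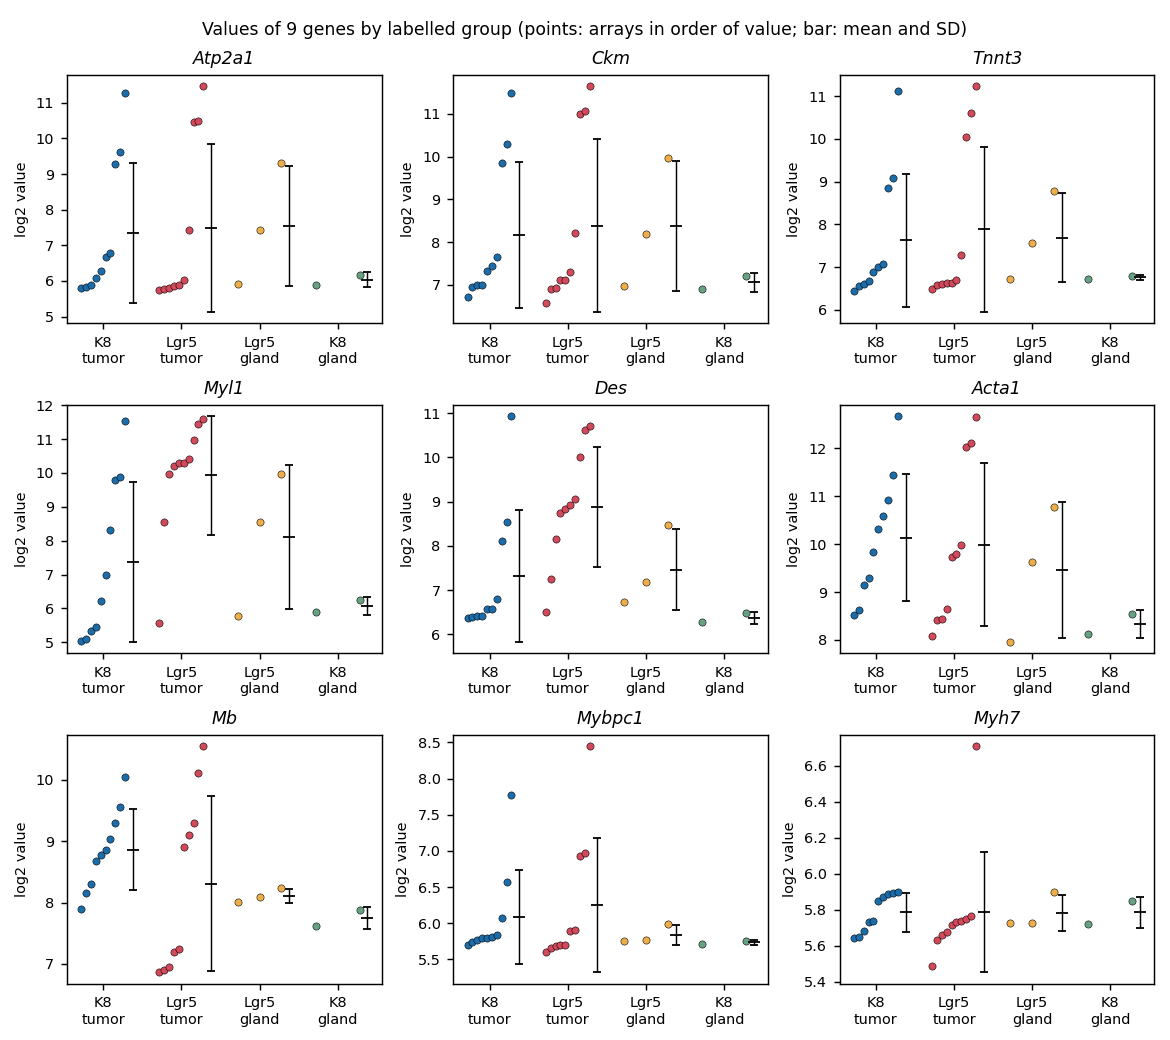
Log2 values of 9 members by labelled group, 1 point per array in order of value, with the group mean and SD as a bar (K8 tumor n = 10, Lgr5 tumor n = 10, Lgr5 gland n = 3, K8 gland n = 2); each panel has its own axis. Atp2a1, Ckm and Tnnt3 show a few high arrays above the rest in both tumor groups, Myl1 and Des are high in most Lgr5 tumors, and Myh7 has a single high point, 6.71 in Lgr5 tumor 4.

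The scaffold has 10 members that anchor the filaments at the Z-disc and M-band. Actn3, the fast fibre alpha-actinin, peaked 3.71 above its median and lay at least 1 above it in 7 arrays. Actn2, the form of all fibres and the heart, peaked 2.41 above and passed 1 in 4 arrays. Ttn, the titin gene, peaked 3.04 above its median. The Z-disc genes Myoz1, Myot and Tcap peaked 3.19, 3.97 and 1.74 above theirs. The peak was lower for Ldb3, which encodes a Z-disc PDZ protein, with 0.97, and for the M-band genes Myom1 and Myom2, with 1.02 and 1.60.

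Des encodes desmin, the intermediate filament that links myofibrils in skeletal, cardiac and smooth muscle. For Des the lowest, median and highest K8 tumors had 6.36, 6.57 and 10.94, and the Lgr5 tumors 6.50, 8.89 and 10.72. Glands of the Lgr5 line had 6.73, 7.19 and 8.48 for Des, and those of the K8 line 6.48 and 6.28. The highest K8 tumor was K8 tumor 7, and Lgr5 tumors 1, 4 and 10 followed it with 10.62, 10.72 and 10.02. As with Myl1, the fat-rich Lgr5 tumors 2, 6, 7, 8 and 9 were also high, with 8.93, 8.74, 8.84, 9.06 and 8.16. Lgr5 tumors 3 and 5, which were not fat-rich, had 7.26 and 6.50. K8 tumors 1, 2, 4, 5, 6, 9 and 10 had 6.36 to 6.80.

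The 4 calcium handling genes had the largest mean deviation of any role, 4.02 in Lgr5 tumor 4 and 3.85 in K8 tumor 7. The thick filament had 2.54 and 2.04. The roles differ in fibre class: the calcium genes include no slow gene, whereas the thick filament includes Myh7, Myl2, Myl3 and Mybpc1. Atp2a1 encodes the calcium pump that refills the sarcoplasmic reticulum of fast fibres. Atp2a1 ran from 5.80 through a median of 6.47 to 11.26 in the K8 tumors and from 5.75 through 5.95 to 11.48 in the Lgr5 tumors. It read 5.93, 7.43 and 9.30 in the Lgr5 glands and 6.18 and 5.88 in the K8 glands. Its peak was 5.30 above its median, a 39.4-fold difference on the linear scale and the largest such distance of the 38. It lay at least 1 above its median in 9 arrays, which were the 7 named above and, at 7.42 and 7.43, Lgr5 tumor 3 and Lgr5 gland 2.

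Pvalb encodes parvalbumin, a calcium buffer that speeds the relaxation of fast fibres. Pvalb ran from 5.47 through a median of 5.96 to 10.47 in the K8 tumors and from 5.39 through 5.55 to 10.65 in the Lgr5 tumors. It read 5.75, 6.71 and 8.21 in the Lgr5 glands and 5.78 and 5.71 in the K8 glands. It peaked 4.87 above its median. Ryr1, the calcium release channel, peaked 2.32 above its median, and Casq1, which stores calcium in the reticulum, 3.75 above.

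The energy genes have 6 members. Ckm, the muscle creatine kinase that buffers ATP, had the highest peak over its median of them. In the K8 tumors the Ckm value was 6.72 at the lowest, 7.38 at the median and 11.50 at the highest. In the Lgr5 tumors the same values were 6.58, 7.21 and 11.65, with 6.96, 8.19 and 9.98 in the Lgr5 glands and 7.21 and 6.90 in the K8 glands. Ckm had 7 high arrays from 9.86 to 11.65, and its next value was 8.21, in Lgr5 tumor 3. The glycolytic genes Eno3, Pygm and Pgam2 (muscle enolase, glycogen phosphorylase and phosphoglycerate mutase) peaked 3.64, 3.84 and 2.72 above their medians. Ckmt2, the mitochondrial creatine kinase of muscle, was lower, with deviations of 1.69 in Lgr5 tumor 4 and 0.84 in K8 tumor 7.

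Mb, the gene of the oxygen-binding protein myoglobin, departed from the other metabolic genes. Mb ran from 7.89 through a median of 8.82 to 10.05 in the K8 tumors and from 6.86 through 8.08 to 10.55 in the Lgr5 tumors. It read 8.01, 8.09 and 8.23 in the Lgr5 glands and 7.87 and 7.62 in the K8 glands. K8 tumors 1 and 5, with mean deviations of all members of -0.18 and 0.09, had Mb values of 9.56 and 9.30. The fat-rich Lgr5 tumors 2, 6, 7, 8 and 9 had the lowest values, 6.91, 7.24, 7.20, 6.86 and 6.94. Every K8 tumor exceeded both K8 glands, and the highest values were again in Lgr5 tumors 1 and 4 and K8 tumor 7.

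The fast and slow fibre genes were then compared within each array. In Lgr5 tumor 4 the mean deviation was 3.69 for the 13 fast genes and 1.07 for the 7 slow genes, and in K8 tumor 7 it was 3.47 and 0.33. Lgr5 tumor 1 had 2.80 and 0.24, and Lgr5 tumor 10 had 2.68 and 0.17. All 13 fast genes were at least 1 above their medians in each of these 4 arrays. Of the 7 slow genes 2 (Mybpc1 and Myl2) were so in Lgr5 tumor 4, and 1 (Mybpc1) in each of the other 3.

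In the middle set the fast mean again exceeded the slow mean, and the highest slow deviation was that of Mybpc1, 0.78 in K8 tumor 8. K8 tumor 8 had means of 1.68 for the fast and 0.19 for the slow genes, K8 tumor 3 had 1.38 and -0.01, and Lgr5 gland 3 had 1.36 and 0.06. In the other 18 arrays the slow mean lay between -0.09 and 0.07 and the fast mean between -0.49 and 0.36. The labelled groups did not separate on this measure: the mean of fast minus slow was 0.46 ± 1.19 (SD, n = 10) in the K8 tumors, 0.73 ± 1.27 (n = 10) in the Lgr5 tumors, 0.45 ± 0.82 (n = 3) in the Lgr5 glands and -0.34 ± 0.08 (n = 2) in the K8 glands. Without K8 tumor 7 the K8 tumor mean was 0.16, and without Lgr5 gland 3 the Lgr5 gland mean was 0.03. Myl1 weighs on the low values: in the K8 glands its deviations were -2.29 and -2.67, while the median fast deviations were -0.07 and -0.21.

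Pair by pair, the fast isoform lay further above its median than the slow one in all 7 pairs in each of the 4 arrays with most members up. The difference of deviations for troponin T (Tnnt3 minus Tnnt1) was 4.29 in K8 tumor 7, 3.94 in Lgr5 tumor 4, 3.70 in Lgr5 tumor 1 and 3.15 in Lgr5 tumor 10. For the heavy chains (Myh4 minus Myh7) it was 3.52, 2.78, 2.66 and 3.41 in the same arrays, so that Lgr5 tumor 10 came second. Myosin binding protein C (Mybpc2 minus Mybpc1) had the smallest differences in these arrays, 1.26, 0.42, 0.85 and 1.64.

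Both classes were measured mostly by dim probe sets. All 7 slow genes had a median below 7.14, the median over all genes of the same quantity, as did 11 of the 13 fast genes. The median range over the 25 arrays was 4.07 for the fast genes and 0.94 for the slow genes, against 0.66 for all genes. A range of at least 2 was found for 13 of 13 fast genes and 1 of 7 slow genes, against 12.5% of all genes. Whether a dim probe set understates a change of its gene was not tested. Myh1 and Pvalb, fast genes with medians of 5.53 and 5.78, peaked 3.77 and 4.87 above them.

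**Figure D3:**
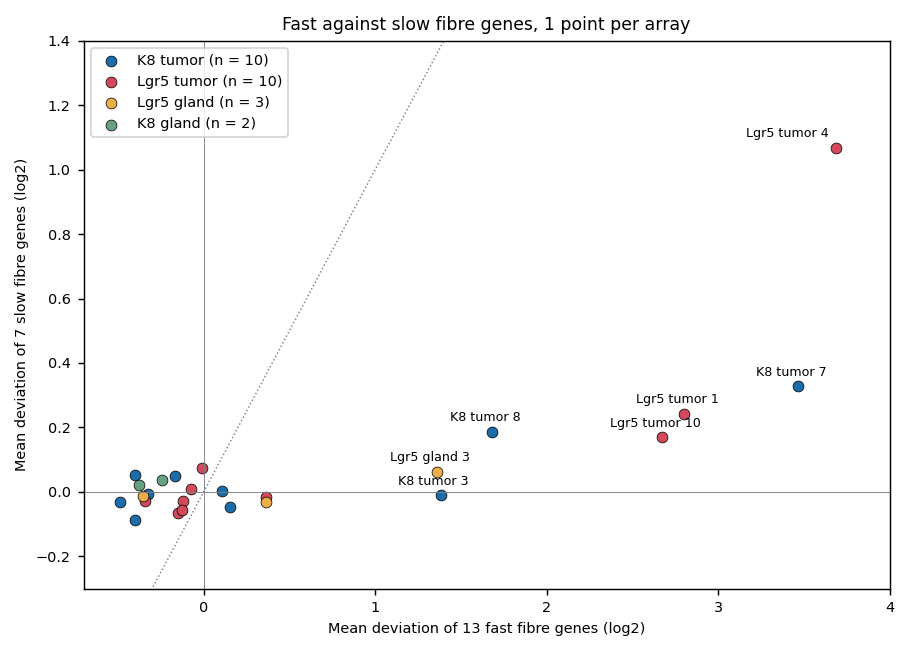
Mean deviation of the 13 fast genes (horizontal, log2) against that of the 7 slow genes (vertical, log2), 1 point per array, coloured by labelled group; the dotted line marks equal deviations. The 7 arrays with muscle genes up lie to the right and below the line, and Lgr5 tumor 4, at 3.69 and 1.07, is the only one with a slow mean above 0.33.

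Between labelled groups the differences of the members were small beside the spread within groups. In the limma test over all 19937 genes (Benjamini-Hochberg adjusted p under 0.05), 9.10% of all genes were called for K8 tumor against K8 gland and 0 of the 38 members, where 3.42% of all genes were called higher in the tumors. The same count was 15.9% of all genes (5.28% higher) and 0 members for Lgr5 tumor against Lgr5 gland. At an unadjusted limma p under 0.05 the members numbered 0 in both, against 24.6% and 32% of all genes. The median log2 difference of the members was 0.59 for the K8 line, with 33 of 38 higher in the tumors, and 0.29 for the Lgr5 line, with 36 of 38 higher, while the medians of all genes were -0.01 and -0.01. The median of the 7 slow genes was -0.03 in the K8 line and 0.10 in the Lgr5 line.

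Single members had wide errors in these contrasts. In the K8 line Acta1 had a difference of 1.80 ± 1.11 on the log2 scale (SE; limma adjusted p = 0.345) and Mb one of 1.11 ± 0.78 (limma adjusted p = 0.42). Ckm had 1.11 ± 1.35 (limma adjusted p = 0.70). In the Lgr5 line Des had 1.42 ± 0.86 (limma adjusted p = 0.267) and Myl1 1.83 ± 1.30 (limma adjusted p = 0.354). Without the 5 fat-rich arrays and the 4 with most members up, a setting added after seeing the data, the Des difference turned to -0.59. Without all 7 arrays whose markers go against their labels, Mb alone of the 38 passed, in both tumor-gland contrasts. In the K8 line it had 1.22 and a limma adjusted p of 0.0433. That fit, which kept all the glands, called 5351 of all 19937 genes in the K8 line and 3582 in the Lgr5 line.

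Between the tumor groups 21.3% of all genes (12.3% higher and 9.00% lower in the K8 tumors) and 1 of 38 members were called. That member was Myl1, at -2.56 ± 0.88 log2 units for K8 minus Lgr5 tumor (SE; limma adjusted p = 0.0426), lower in the K8 tumors although the groups overlapped. At an unadjusted limma p under 0.05 there were 2 members, Myl1 and Des, against 35.5% of all genes. Des had -1.57 ± 0.58 (limma adjusted p = 0.0575) and Mb 0.55 ± 0.45 (limma adjusted p = 0.411). The Mb difference turned to -0.73 without the 5 fat-rich arrays, -0.75 without all 7 arrays whose markers go against their labels, and -0.38 without the fat-rich arrays and the 4 with most members up. The median of all members was -0.16, with 3 of 38 higher in the K8 tumors, and that of all genes 0.01.

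The Myl1 call was lost in several other fits. With only the groups compared its limma adjusted p was 0.055, and with the replicate block 0.0616. Its limma adjusted p was between 0.0518 and 0.0777 when any 1 of 15 tumor arrays was left out (K8 tumors 1, 2, 4, 5, 6, 9 or 10, or Lgr5 tumors 1, 2, 4, 6, 7, 8, 9 or 10). Without the 5 fat-rich arrays the difference was -2.26 with a limma adjusted p of 0.63, and 0 of all 19937 genes were called. Without these 5 and the 4 arrays with most members up the Myl1 difference was -0.16 and that of Des 0.03. There too 0 of all genes were called. The count was 2, with Des, without K8 tumor 7 (limma adjusted p of Des 0.00937), Lgr5 tumor 3 (0.0307) or Lgr5 tumor 5 (0.0206). Of all genes 4794, 5698 and 5485 were called in these fits. The part of the fat-rich tissue in the Myl1 and Des values was not tested.

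Between the glands 0.00% of all genes and 0 of 38 members were called, with 0 members and 1.6% of all genes at an unadjusted limma p under 0.05. The median log2 difference of K8 minus Lgr5 gland was -0.36 over the members, and 7 of 38 were higher in the K8 glands. The difference of the 2 tumor-gland contrasts also gave 0.00% of all genes and 0 members, with 0 members and 4.43% of all genes at an unadjusted limma p under 0.05 and a member median of 0.07.

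**Figure D4:**
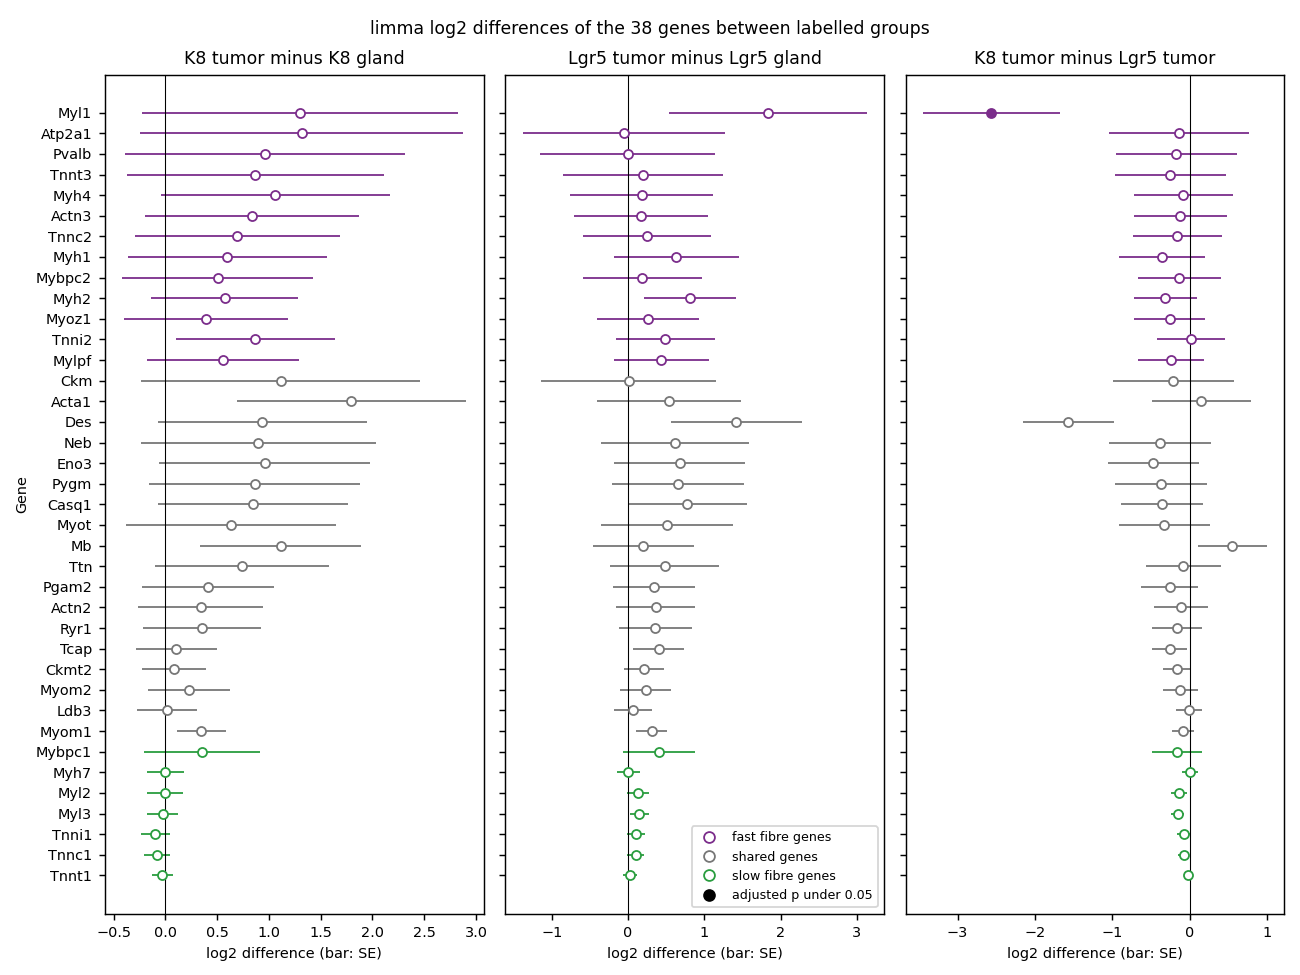
Log2 difference of each of the 38 genes in the limma fit with its SE (bar) for K8 tumor minus K8 gland, Lgr5 tumor minus Lgr5 gland and K8 tumor minus Lgr5 tumor, coloured by fibre type, with filled points for an adjusted p under 0.05. Myl1 in the third panel, at -2.56, is the only filled point, and the slow genes except Mybpc1 lie close to 0 in all 3 panels.

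Few members separated the groups without overlap. For K8 tumor against K8 gland all arrays of 1 group lay above all of the other for 3 of 38 members (Casq1, Mb and Myh2), against 16.3% of all genes. For Lgr5 tumor against Lgr5 gland this held for 1 member, Myom1, against 6.08%. Between the tumor groups it held for 0 members and 0.00% of all genes. Between the glands, with 2 against 3 arrays, it held for 9 members (Ckmt2, Des, Mb, Myh1, Mylpf, Myom1, Myot, Tnnc1 and Tnni1), against 19.8%.

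Other muscle genes, listed separately from the members, followed in part. Of 50 listed, 48 were measured. Of these 18 lay at least 1 above their own median in K8 tumor 7, 18 in Lgr5 tumor 4, 12 in Lgr5 tumor 1 and 9 in Lgr5 tumor 10, and at most 4 in any other array. Trdn, which encodes triadin of the calcium release unit, had a range of 4.96 and its peak in Lgr5 tumor 4. Apobec2, a muscle deaminase family gene, peaked at 9.91 against 6.21. Of this list Cryab, Hspb6 and Tpm2 were higher for K8 tumor against K8 gland, 3 of 48 against 3.42% of all genes. Tpm2, a tropomyosin, had 2.69 ± 0.85 (SE, limma adjusted p = 0.0492).

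In the Lgr5 line the small heat shock genes Cryab (0.78 ± 0.18) and Hspb6 (1.69 ± 0.49) were higher in the tumors and Tpm3 was lower (-0.35 ± 0.10). This made 3 of 48 called by limma, against 15.9% of all genes. Without the fat-rich Lgr5 tumors 2, 6, 7, 8 and 9 this contrast called 1 of all 19937 genes. Between the tumor groups 6 of 48 were higher in the K8 tumors (Atp2a2, Casq2, Fbxo32, Jph2, Pdlim3 and Tpm1), against 12.3% of all genes. Lower were 3 of 48 (Amy1, Fhl1 and Phkg1), against 9.00%. All of these calls between the tumor groups were lost without the same fat-rich arrays, where 0 of 19937 genes were called. Casq2, the cardiac and slow calsequestrin, had 2.15 ± 0.67 (SE; limma adjusted p = 0.0284), and its highest value, 10.44, was in K8 tumor 5, an array with no member at least 1 above its median.

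The genes closest to the mean pattern of the members were looked for among 17016 others, as the smallest root mean square difference of deviations over the 25 arrays. The 10 closest were Tmod4, Klhl41, Mylk4, Hjv, Ankrd23, Cox6a2, Ppp1r3a, Nrap, Smpx and Asb5. Tmod4, which caps thin filaments in muscle, differed by 0.19 and had deviations of 3.08 in Lgr5 tumor 4, 2.90 in K8 tumor 7, 2.09 in Lgr5 tumor 10 and 2.02 in Lgr5 tumor 1. Klhl41, a sarcomere assembly factor, differed by 0.26. Of the 10, 5 were in the list of other muscle genes.

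Markers of other cells moved with the members in some arrays and not in others. Of 11 brown adipocyte genes 10 were measured, and their mean deviation was 2.27 in K8 tumor 7, 1.31 in Lgr5 tumor 1, 1.85 in Lgr5 tumor 4 and 0.61 in Lgr5 tumor 10. It was higher, 3.22, 2.87 and 3.08, in Lgr5 tumors 6, 7 and 8, where the mean over the 38 members was -0.11, -0.01 and -0.05. It was -0.06 in K8 tumor 8, where the members had 1.17. By group it ranged from -0.47 to 2.27 in the K8 tumors, -0.29 to 3.22 in the Lgr5 tumors, -0.19 to 0.27 in the Lgr5 glands and -0.27 to 0.11 in the K8 glands. Ucp1, the defining gene of brown fat, reached 11.30 among the K8 tumors and 12.47, in Lgr5 tumor 6, among the Lgr5 tumors, against a median of 5.72.

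The 12 adipocyte genes measured, of 13 listed, had mean log2 values of 11.31 in K8 tumor 7, 11.02 in Lgr5 tumor 4, 10.44 in Lgr5 tumor 1 and 9.57 in Lgr5 tumor 10, and of 8.58, 9.22 and 9.69 in K8 tumors 8 and 3 and Lgr5 gland 3. They were higher still in the 5 fat-rich arrays, where at most 2 members were at least 1 above their median. Of 9 smooth muscle and myoepithelial genes 8 were called higher for K8 tumor against K8 gland, against 3.42% of all genes. Their mean deviation was 0.04 in K8 tumor 7, 0.12 in Lgr5 tumor 4, 0.20 in Lgr5 tumor 1 and -1.28 in Lgr5 tumor 10. In the middle set it was 1.53 in K8 tumor 8, the highest of all arrays, 1.24 in K8 tumor 3 and -1.504 in Lgr5 gland 3. Acta1 deviations were -0.58, 0.11, -0.435, 0.59 and 0.86 in K8 tumors 1, 2, 4, 5 and 6. Their smooth muscle means were 1.20, 1.20, 0.759, 1.36 and 1.49. K8 tumor 10 and Lgr5 tumors 3 and 5 had -1.107, 0.065 and 0.267 for Acta1 and means of 0.799, 1.175 and 1.262. The part of these cells in the Acta1, Des and Myl1 values was not tested.

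**Figure D5:**
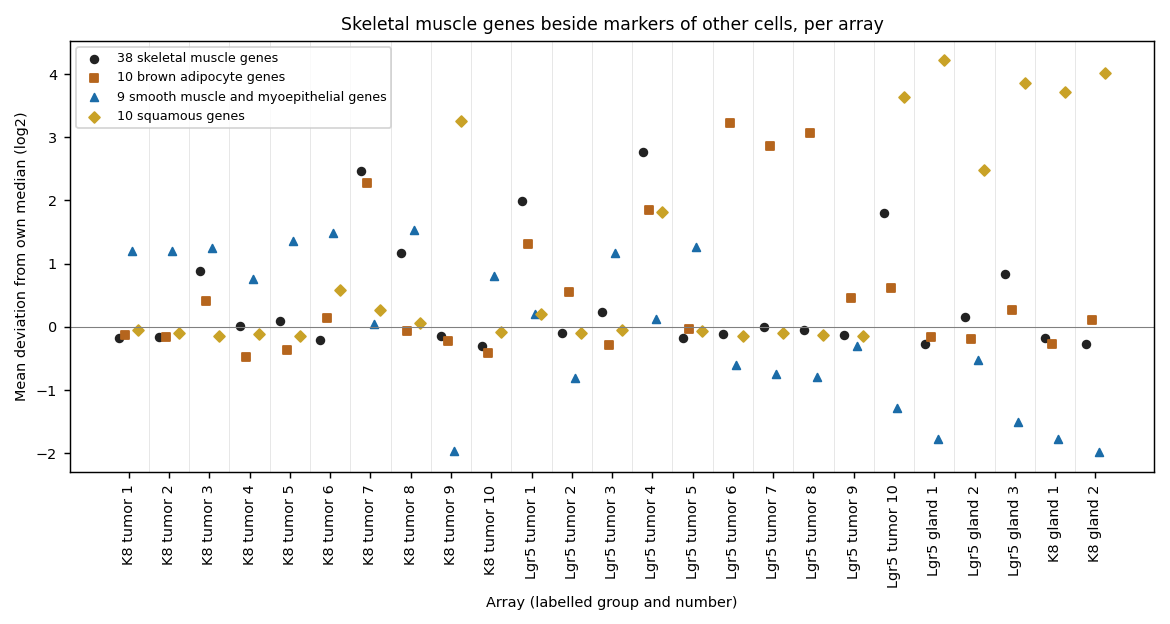
Mean deviation (log2) per array of the 38 members (black circles), 10 brown adipocyte genes (brown squares), 9 smooth muscle and myoepithelial genes (blue triangles) and 10 squamous genes (yellow diamonds). The black circles are highest in K8 tumor 7 and Lgr5 tumors 1, 4 and 10, the brown squares in Lgr5 tumors 6, 7 and 8 at 2.87 to 3.22, and the blue triangles in K8 tumor 8 at 1.53.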

How the data were processed

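Total RNA of 25 tissue samples (100 ng input) was amplified and hybridised to single-colour Affymetrix arrays, per the labels' protocols. The deposited values were read as log2 intensities because they run from 4.13 to 13.9. The affy package is named in the submitters' processing notes, while background correction, normalization and genome build were not given in the sources used here. No total count exists for an array, and depth is not defined.

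Names of probe sets came from the platform's annotation: of 34760, 21640 had 1 gene symbol, 1321 several and 11799 were unlisted. Of these symbols' gene IDs 21553 matched the reference table, and 0 symbols changed. Where a symbol had several probe sets (954 symbols) the one with the highest mean over the 25 arrays was kept, which left 19937 genes. Group means were fitted over all 25 arrays with limma 3.58.1 in R 4.3.3, with empirical Bayes moderation and Benjamini-Hochberg adjustment over all genes at 0.05. Deviations, motif searches and plots used Python 3.11.15, numpy 2.4.6, pandas 2.3.3 and matplotlib 3.10.9. The fit was tested on simulated data for these arrays: of 100 genes changed by 1 log2 unit and 100 by 2, among 19937, 81% and 94% were recovered for K8 tumor against K8 gland, and 93% and 98% between the tumor groups. These rates are over genes of all spreads and not those of the members, whose standard errors reached 1.56 in the K8 line.

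All members are reported by name. The isoform pairs, Acta1, Ckm, Des, Mb and the members with the largest range have the lowest, median and highest value of each tumor group. For the same genes every gland value is given. The 10 genes most like the members' mean pattern were taken by root mean square difference. The members and gene lists were chosen with earlier results of these data known. Alternatives were other sample sets, array weights, a filter on dim genes (log2 6 in at least 2 arrays), a replicate block and leaving out each array.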

Additional observations from a re-analysis of the deposited data

Results flagged for a closer look

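Within each group of 10 tumors the highest and lowest value of each member, and of the mean fast minus slow deviation, was set against its nearest neighbour, as a gap over the group's range above Dixon's critical value of 0.466. Chance passes this limit in about 1 in 20 sets of values when each is taken alone. Of the 78 sets checked 27 passed it. The members were read in the same arrays and move together, so the 27 cannot be set against that rate. The 27 came from 3 arrays.

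K8 tumor 7 stood above the other K8 tumors for 18 members. Of the contractile genes these were Myh1 at 9.10 (next 6.37), Myh2 at 8.02 (next 6.52), Mylpf at 8.21 (next 6.85), Mybpc1 at 7.78 (next 6.58), Mybpc2 at 9.80 (next 7.72) and Tnnc2 at 9.67 (next 7.80). Of the scaffold genes they were Actn2 at 8.43 (next 6.94), Des at 10.94 (next 8.54), Tcap at 7.12 (next 6.05), Myot at 9.43 (next 7.32), Myom1 at 6.76 (next 6.09), Myom2 at 7.15 (next 6.30) and Myoz1 at 8.73 (next 6.84). The calcium and energy genes were Ryr1 at 8.27 (next 6.68), Casq1 at 9.17 (next 7.02), Ckmt2 at 6.46 (next 5.77), Pygm at 10.10 (next 8.26) and Pgam2 at 8.14 (next 6.22).

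Lgr5 tumor 4 stood above the other Lgr5 tumors for 8 members, of which 6 are slow fibre genes: Myh7 at 6.71 (next 5.77), Myl2 at 6.83 (next 5.82), Mybpc1 at 8.45 (next 6.97), Tnnt1 at 6.55 (next 6.16), Tnni1 at 6.64 (next 6.06) and Tnnc1 at 6.48 (next 5.99). The other 2 were Myom1 at 6.79 (next 6.30) and Ckmt2 at 7.31 (next 6.03). Lgr5 tumor 5 was the lowest Lgr5 tumor for Myl1, at 5.58 against 8.54 for the next.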

How the results depend on the processing

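Of the counts of members called, those for the glands and for the difference of the tumor-gland contrasts were 0 under every setting run. For both tumor-gland contrasts they were 1 (Mb) without all 7 arrays whose tissue markers go against the label, and 0 otherwise. The fit without these 7 called 5351 of 19937 genes in the K8 line and 3582 in the Lgr5 line. The count between the tumor groups was 1. It was 0 with only the groups compared, with the replicate block, without Lgr5 tumors 2, 6, 7, 8 and 9, after dropping K8 tumor 9 together with Lgr5 tumor 10, and without all 7. The member count was 2 with array weights (7997 of all genes called) and with the filter on dim genes (4561 of 14288), where Des passed too. Leaving out 1 array gave 0 to 2 members, and 2291 to 5698 of all genes. In settings added after seeing the data 3 members (Myl1, Des and Mb) passed without K8 tumor 7 and Lgr5 tumors 1, 4 and 10. Without these and Lgr5 tumors 2, 6, 7, 8 and 9 the count was 0. These fits called 6664 and 0 of all genes. In that last setting Des was 0.034 between tumors and -0.59 for Lgr5 tumor against gland, the reverse of the values over all arrays, and Mb was -0.38 between tumors. Mb was also reversed, at -0.73 without the 5 fat-rich arrays and -0.75 without all 7. Fewer arrays enter these fits, and the cause was not tested. The fast minus slow difference in the K8 glands was -0.17 with medians over members. Left out 1 array at a time, that difference ran from 0.159 to 0.558 in the K8 tumors, 0.525 to 0.851 in the Lgr5 tumors and 0.026 to 0.845 in the Lgr5 glands.

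The tumors share replicate numbers, and same-numbered tumors correlated between -0.147 and 0.513, with 4 of 10 over 0.1 and 1 tumor closest to its own number, so the numbers do not pair the samples. The replicate block gave 0 members called in the pairing fit between tumors. The groups of 2 and 3 glands limit every comparison with them, and signal over background is not in the values.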

Other observations

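Of 15 listed genes that regulate muscle formation 14 were measured. Myod1, Myog, Pax7, Myf5 and Pax3, the factors of muscle precursors, had ranges over the 25 arrays of 0.47, 0.35, 0.35, 0.28 and 0.22. Mstn, which encodes the growth inhibitor myostatin, reached 7.10 in K8 tumor 7, and Myf6, the regulator of mature fibres, 6.99 in the same array. Myf6 lay at least 1 above its median of 5.51 in 3 arrays, with 6.76 as the next value. Mef2c was higher for K8 tumor against K8 gland by 1.34 ± 0.32 (SE; limma adjusted p = 0.0189).

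The embryonic and perinatal heavy chains Myh3 and Myh8 had ranges of 0.20 and 0.43, and the cardiac genes Myh6 and Nppa of 0.33 and 0.21. Other genes of these lists varied more: Ncam1 (range 2.24) and Chrna1 (0.91) peaked in Lgr5 tumor 1, and Tnnt2 (1.82) in Lgr5 tumor 10. The mean deviation of the 9 embryonic and regenerating muscle genes was highest in Lgr5 tumor 1, at 0.65. Myl4, an embryonic and atrial light chain, was higher for Lgr5 tumor against Lgr5 gland by 1.57 ± 0.35 (limma adjusted p = 0.0104). Its difference for K8 minus Lgr5 tumor was -1.10 ± 0.24 (limma adjusted p = 0.0118). Without the fat-rich Lgr5 tumors 2, 6, 7, 8 and 9 the fit called 0 of 19937 genes between the tumor groups, so this second call was lost. For Lgr5 tumor against Lgr5 gland it called 1 of 19937 genes. Of 7 neuromuscular junction genes Chrnb1 had a range of 1.68 and Musk of 0.41. The tendon genes Tnmd and Thbs4 had ranges of 4.76 and 4.67. Thbs4 peaked in Lgr5 tumor 1, but Tnmd in Lgr5 tumor 5, where 0 members lay at least 1 above their median. Myoz2, the Z-disc gene of slow fibres and heart, named after its values were seen, was 7.97 in Lgr5 tumor 4 against a median of 5.23 and a next value of 6.95.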
